A study of Homo sapiens with 5 samples.

Results

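The 10 genes described here are 8 that encode subunits of the transcription factor AP-1, JUN, JUNB, JUND, FOS, FOSB, FOSL1, FOSL2 and ATF3, and 2 further immediate early genes, EGR1 and IER2. They were taken by gene symbol, and all 10 were found among the 27189 genes listed for each library. HT1080 is a human fibrosarcoma cell line, used at passages 15 to 18. The cells were embedded in 3D type I collagen at 2 mg per ml for 24 h, and a population was sequenced in 5 conditions, with 1 library per condition. LD held 10 cells per cubic mm without added cytokine. The IL-6 and IL-8 conditions were matrices at that density with recombinant interleukin 6 or interleukin 8 added. RM was also at that density and received both cytokines in a ratio of 5 to 2. HD held 50 cells per cubic mm without added cytokine. The comparisons ask whether either cytokine, both together or a higher cell density moved the transcripts of these genes. No difference below has a replicate check, and no test between conditions is possible. Intervals are at the 95% level and cover the counting of reads only, since amplified reads without molecular identifiers are not independent molecules.

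AP-1 is a dimer of basic leucine zipper proteins. Jun proteins pair with one another or with Fos proteins, whereas Fos proteins need a Jun partner, and ATF3 pairs with Jun or with itself. Most of these genes are transcribed within minutes of a growth factor, cytokine or stress signal through MAP kinases, without new protein synthesis, and many of the transcripts decay quickly. FOS, FOSB, EGR1 and IER2 are classical transient responders, whereas JUND and FOSL1 can be held at a steady level in tumour cells.

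The libraries had between 926376 and 7118545 counted reads. The ribosomal RNA gene RNA5-8S5 accounted for 76.9 to 79.6% of these at low density and for 51.5% in HD. Levels are therefore given as CPM, the reads per 1000000 reads counted outside RNA5-8S5. Those reads numbered from 449661 in HD to 1645539 in LD. A count of 3 reads corresponds to 1.82 to 2.72 CPM at low density and to 6.67 CPM in HD, and a gene with 0 reads may lie anywhere up to that floor. HD stood apart from the rest. Reads were found on 226 of 368 olfactory receptor genes in HD against 10 to 32 in the other libraries, and on 9 of 11 marker genes of epithelial, leukocyte, endothelial and erythroid cells (351 CPM in sum) against 1 to 3 of them (2.43 to 8.37 CPM). KRT5 and HBA1 had 0 reads in every library. The 10 fibrosarcoma markers examined had reads in every library, with a sum of 1532 CPM in HD against 7988 to 11403 in the others. These shifts move with every HD value below, and their part in those values was not tested. In a bulk sample, fewer cells with a transcript and less of it per cell cannot be told apart.

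To show what these genes share upstream of their starts, windows of 250 bases before the annotated start were read from RefSeq (GRCh38.p14), which held 10 windows for 9 of the genes and none for FOSL1. The letters TGACG, the half-site of the cyclic AMP response element bound by CREB and ATF proteins, occurred on either strand in 8 of the 9 genes, all but ATF3, against 21.2% of the 35116 windows in the table. It began 123 bases before the start in JUN, 137 in JUNB, 140 in IER2, and 86 and 200 in JUND. FOSL2 and EGR1 each had 1 copy far upstream, at 201 and 135 bases, that of FOSL2 outside the stretch printed. FOS, FOSB, FOSL2 and EGR1 had a half-site at nearly the same distance, beginning 64, 60, 66 and 66 bases before the start. These 4 are printed with JUN and JUNB, with the half-site (TGACG, or CGTCA where it lies on the opposite strand), the TATA box TATAAA of FOS, FOSB and JUNB, the pair of CArG boxes of EGR1 and the letters TGACATCA of JUN in capitals. The CArG box is the binding site of serum response factor, and TGACATCA is a variant of the AP-1 site known from the control of JUN by its own product. Each sequence runs 5′ to 3′ and ends at the last base before the start.
FOS, plus strand, chr14:75278728-75278827: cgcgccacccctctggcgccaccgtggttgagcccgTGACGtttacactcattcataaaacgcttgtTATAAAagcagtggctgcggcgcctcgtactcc
FOSB, plus strand, chr19:45467896-45467995: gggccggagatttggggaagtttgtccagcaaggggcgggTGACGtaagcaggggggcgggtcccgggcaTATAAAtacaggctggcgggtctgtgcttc
FOSL2, plus strand, chr2:28392758-28392857: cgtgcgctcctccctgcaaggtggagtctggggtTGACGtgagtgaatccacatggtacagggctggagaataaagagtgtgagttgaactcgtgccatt
EGR1, plus strand, chr5:138465329-138465478: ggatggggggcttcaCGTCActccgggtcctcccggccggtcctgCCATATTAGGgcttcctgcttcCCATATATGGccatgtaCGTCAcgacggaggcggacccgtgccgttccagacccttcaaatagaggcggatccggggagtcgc
JUN, minus strand, chr1:58784048-58784177: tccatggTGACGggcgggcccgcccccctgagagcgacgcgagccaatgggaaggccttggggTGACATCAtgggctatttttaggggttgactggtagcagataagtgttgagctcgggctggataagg
JUNB, plus strand, chr19:12791346-12791485: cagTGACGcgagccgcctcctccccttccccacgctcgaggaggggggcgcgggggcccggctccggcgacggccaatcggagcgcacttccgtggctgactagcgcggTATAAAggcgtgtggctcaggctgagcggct

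EGR1 was the only one of the 9 genes with a CArG box in its window, and it had 2, whereas 1.16% of all windows had at least 1. TGACATCA was found in JUN and in 1 of the 2 windows of ATF3, against 2.37% of all windows. JUND alone held the full element TGACGTCA, which contains the half-site, against 1.65% of all windows. The canonical AP-1 site TGACTCA was in none of the 10 windows, against 4.20% of all windows, and the EGR site GCGTGGGCG was also in none, against 0.72%. TATAAA was found in JUNB, FOS and FOSB near the start and in 1 window of ATF3 at 230 bases, against 10.7% of all windows, and the GC box GGGCGG in 7 genes against 42.6%. All motifs were searched on both strands. A match describes these letters and not a bound site.

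**Figure D1:**
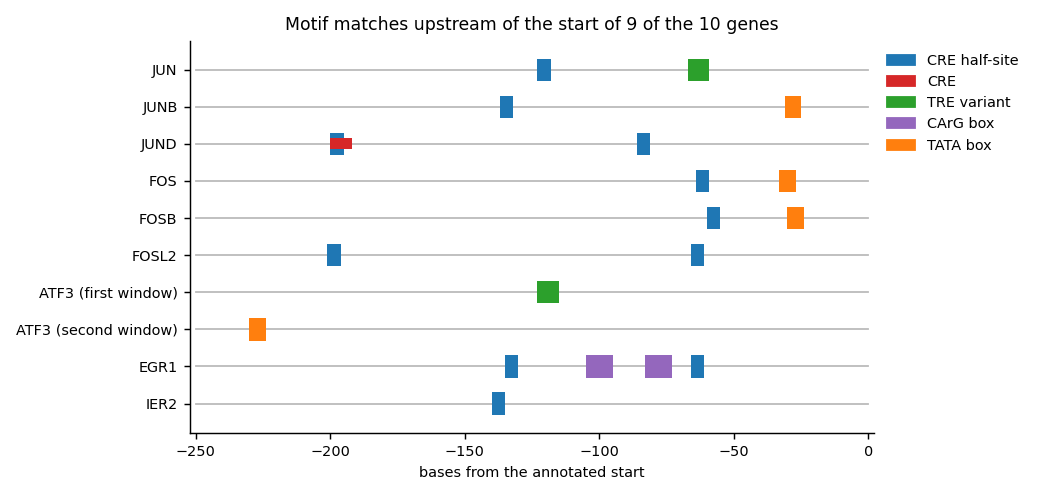
Positions of motif matches in the 250 bases before the annotated start (x axis, bases from the start) for 9 of the 10 genes, with ATF3 in 2 windows. A half-site lies about 60 bases before the start in FOS, FOSB, FOSL2 and EGR1 and further upstream in JUN, JUNB, JUND and IER2. The 2 CArG boxes are in EGR1.

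Summed over the 10 genes, the level was highest in IL-6 at 1102 CPM (1213 reads) and in LD at 1069.6 CPM (1760 reads), and lower in IL-8 at 802 CPM (899 reads), in RM at 729.9 CPM (1047 reads) and in HD at 287 CPM (129 reads). HD held 0.268 times the LD sum (interval 0.223 to 0.321), RM 0.682 times (0.632 to 0.737), IL-8 0.750 times (0.691 to 0.813) and IL-6 1.03 times (0.957 to 1.11). On this scale IL-6 lay within counting error of LD, and IL-8, RM and HD lay below it. The scale decides much of this. With TMM factors, which assume that most genes do not differ, the RM sum was 0.918 times that of LD and the IL-8 sum 0.868 times, and with median-ratio factors they were 1.04 and 0.952 times, so that the direction of RM turned. HD was 0.179 times LD with TMM factors and 0.563 times with RNA5-8S5 kept in the total. Median-ratio factors raise every RM value against LD by 1.52-fold and every IL-8 value by 1.27-fold, which applies to each gene below. Levels of different genes can be compared only per length, as TPM (transcript abundance corrected for gene length). In LD the deposited TPM ranked JUNB first at 231.54, followed by FOSL1 at 134.56, IER2 at 94.82, JUND at 81.27, JUN at 60.6 and FOSL2 at 15.17. EGR1 (3.8), FOSB (2.84) and ATF3 (2.40) were low, and FOS had no read. JUNB lay at the 96.6th percentile of the genes with a TPM above 0 in LD, and ATF3 at the 36.7th. In HD the order was JUN (61.62), IER2 (46.74), FOSL1 (43.89), ATF3 (23.62) and FOSB (14.25), with JUNB down at the seventh place (6.81).

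**Figure D2:**
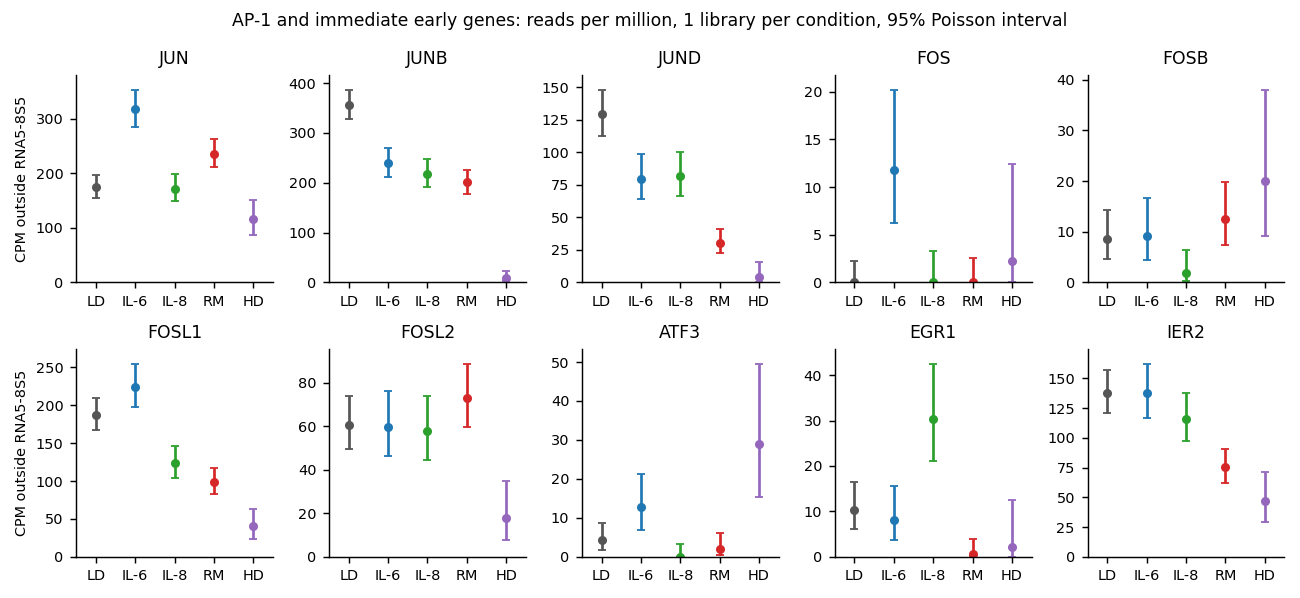
Level of each of the 10 genes (y axis, CPM outside RNA5-8S5, linear from 0) in the 5 libraries, with bars for the 95% Poisson interval of the read count. JUN is highest in IL-6, JUNB and JUND in LD, EGR1 in IL-8 and ATF3 in HD.

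JUN, the Jun protein with the strongest activating function, stood at 318 CPM in IL-6 (350 reads), 236 in RM (338 reads), 175 in LD (288 reads), 172 in IL-8 (193 reads) and 116 in HD (52 reads). In CPM IL-6 was highest and RM second, an order that turned with TMM factors (log2 difference of RM against IL-6 0.09) and with median-ratio factors (0.23), against -0.43 in CPM. LD and IL-8 could not be separated (ratio 1.02, interval 0.844 to 1.23). JUN was 1.82-fold higher in IL-6 than in LD (interval 1.55 to 2.13) and 1.35-fold higher in RM (1.15 to 1.58). Both of these directions held under each of the 9 scales and priors tried, with a log2 difference of 0.27 to 1.03 for RM. HD was 1.51-fold below LD in CPM (1.12 to 2.07), but this direction depended on the scale, since JUN was 1.06-fold higher in HD in TPM, rescaled to the same sum in each library, and 1.39-fold higher when RNA5-8S5 was kept in the total.

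JUNB, which can oppose JUN on some promoters and takes its place on others, had 8.90 CPM in HD (4 reads), 201 in RM (288 reads), 218 in IL-8 (244 reads), 239.8 in IL-6 (264 reads) and 356 in LD (586 reads). LD was highest. The 3 cytokine libraries lay close together below it, and neighbours among them did not differ beyond counting error (ratios 1.10, interval 0.922 to 1.32, and 1.084, interval 0.911 to 1.29). Compared with LD, JUNB was 40.0-fold lower in HD (15.6 to 147), 1.77-fold lower in RM (1.54 to 2.05), 1.64-fold lower in IL-8 (1.41 to 1.91) and 1.49-fold lower in IL-6 (1.28 to 1.72). These directions held under each of the 9 scales and priors tried, but the log2 difference of RM was -0.83 in CPM and -0.22 with median-ratio factors.

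JUND, the Jun protein with the steadiest expression in most cells, had 4.45 CPM in HD (2 reads), 30.7 in RM (44 reads), 79.9 in IL-6 (88 reads), 82.1 in IL-8 (92 reads) and 129 in LD (213 reads). IL-6 and IL-8 did not differ beyond counting error (ratio 1.03, interval 0.758 to 1.39), and RM was below both. JUND was 4.22-fold lower in RM than in LD (3.04 to 5.98). RM was also 2.61-fold below IL-6 (1.79 to 3.83) and 2.68-fold below IL-8 (1.85 to 3.93). The log2 difference between RM and IL-6 was -1.37 in CPM, -0.85 with TMM and -0.71 with median-ratio factors. Only 9.33% of the 9300 genes with a mean of at least 10 reads over the 5 libraries had a more negative log2 difference between RM and LD.

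The ratio of 2 genes within a library does not depend on how the library was scaled. JUN had 13.0 reads per read of JUNB in HD (4.78 to 49.5), 1.33 in IL-6 (1.13 to 1.56), 1.17 in RM (1.00 to 1.38), 0.791 in IL-8 (0.651 to 0.959) and 0.491 in LD (0.425 to 0.567). Relative to LD, this ratio was 26.5 times as large in HD (9.56 to 101), 2.70 times in IL-6 (2.17 to 3.36), 2.39 times in RM (1.92 to 2.97) and 1.61 times in IL-8 (1.26 to 2.05). It was thus above the LD ratio in all 4 libraries beyond counting error. Per length, JUN made up 16.2% of the TPM of the Jun family in LD, 23.6% in IL-8, 34.8% in IL-6, 35.3% in RM and 84.7% in HD. JUNB made up 62.0% in LD, 49.3 to 56.5% in the 3 cytokine libraries and 9.36% in HD, on 4 reads. The ratio of JUNB to JUND was similar in LD (2.75, interval 2.35 to 3.23), IL-6 (3.00, 2.35 to 3.86) and IL-8 (2.65, 2.08 to 3.41) and larger in RM (6.55, 4.75 to 9.21).

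**Figure D3:**
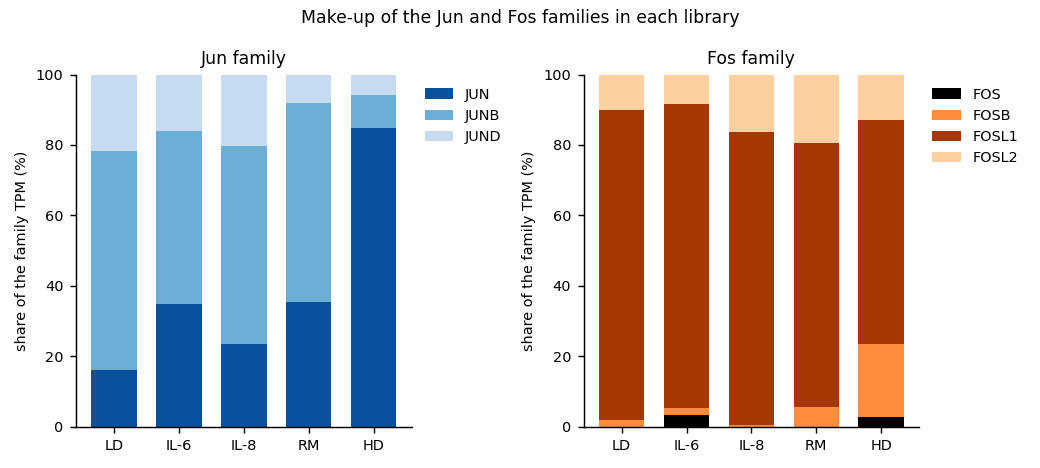
Share of each gene in the summed TPM of its family (y axis, percent) in the 5 libraries, for the Jun family (left) and the Fos family (right). JUN goes from 16.2% of the Jun family in LD to 84.7% in HD, and FOSL1 is the largest part of the Fos family in every library.

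FOSL1 (also called FRA-1), a Fos protein linked to motility and invasion of tumour cells, carried most of the Fos family. Its level was 224 CPM in IL-6 (247 reads), 187 in LD (308 reads), 124 in IL-8 (139 reads), 99.0 in RM (142 reads) and 40.0 in HD (18 reads). IL-6 was slightly above LD (1.199-fold, 1.01 to 1.42), IL-8 and RM were below it, and HD was lowest. FOSL1 was 1.51-fold lower in IL-8 than in LD (1.23 to 1.86), 1.89-fold lower in RM (1.54 to 2.32), a log2 difference of -0.92 that was -0.49 with TMM and -0.31 with median-ratio factors, and 4.68-fold lower in HD (2.91 to 7.995). RM was 2.27-fold below IL-6 (1.84 to 2.81) and within counting error of IL-8 (1.25-fold lower, 0.984 to 1.59). The log2 difference between RM and IL-6 was -1.18 in CPM and -0.52 with median-ratio factors. The share of FOSL1 in the TPM of the Fos family was lowest in HD at 63.7%, followed by RM at 74.9%, IL-8 at 83.2%, IL-6 at 86.5% and LD at 88.2%.

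FOSL2 (FRA-2), its closest relative, had 73.2 CPM in RM (105 reads), 60.8 in LD (100 reads), 59.9 in IL-6 (66 reads), 58.0 in IL-8 (65 reads) and 17.8 in HD (8 reads). None of the neighbouring low-density libraries differed beyond counting error, with RM at 1.205-fold of LD (0.907 to 1.60), and HD lay 3.42-fold below LD (1.67 to 8.13). That 2-fold call ended in TPM, where HD was 0.607-fold of LD, and with RNA5-8S5 kept in the total, where it was 0.615-fold. With TMM and median-ratio factors FOSL2 was higher in RM than in LD by 0.70 and 0.87 on the log2 scale, against 0.27 in CPM. The reads of FOSL1 per read of FOSL2 went from 3.08 in LD (2.45 to 3.90) to 1.35 in RM (1.04 to 1.76), 0.439 times the LD ratio (0.309 to 0.625).

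FOS, the founding member of the family and a marker of recent stimulation, had 13 reads in IL-6 (11.8 CPM), 1 in HD (2.22 CPM) and 0 in LD, RM and IL-8. It was the only one of the 10 genes without a read in more than 1 library. Set against the floor of 3 reads per library, FOS was at least 6.48-fold higher in IL-6 than in LD and at least 5.65-fold higher in IL-6 than in RM. With the counting error of the 13 reads included, the lower 95% limits of these ratios were 4.56 and 3.97. HD could not be distinguished from IL-6 by its single read (5.31-fold lower in HD, 0.797 to 226). FOSB, its relative with a similar transient response, had 9 reads in HD (20.02 CPM), 18 in RM (12.5 CPM), 10 in IL-6 (9.08 CPM), 14 in LD (8.51 CPM) and 2 in IL-8 (1.78 CPM). IL-8 was low, and neighbours among the other libraries did not differ beyond counting error. FOSB was 4.77-fold lower in IL-8 than in LD (1.09 to 43.2) and 7.03-fold higher in RM than in IL-8 (1.68 to 62.5).

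ATF3, a stress-induced factor that represses or activates depending on its partner, had 13 reads in HD (28.9 CPM), 14 in IL-6 (12.7 CPM), 7 in LD (4.25 CPM), 3 in RM (2.09 CPM) and 0 in IL-8. HD and IL-6 were high, and their order was within counting error (2.27-fold, 0.984 to 5.21). ATF3 was 2.99-fold higher in IL-6 than in LD (1.13 to 8.75) and 6.80-fold higher in HD than in LD (2.52 to 20.1). The 7 reads of LD and 0 of IL-8 did not differ beyond counting error (lower limit of the ratio 0.982). The log2 difference of ATF3 between HD and LD was larger than that of 82.7% of the 9300 genes. ATF3, with a mean of 7.4 reads, was not among those genes. Without a filter 68.7% of all genes were at least 2-fold higher in HD than in LD, with a median log2 difference of 1.87.

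EGR1, a zinc finger factor induced through serum response factor, had 34 reads in IL-8 (30.3 CPM), 17 in LD (10.3 CPM), 9 in IL-6 (8.17 CPM), 1 in HD (2.22 CPM) and 1 in RM (0.697 CPM). IL-8 was highest, LD and IL-6 were within counting error of each other (1.26-fold, 0.533 to 3.22), and RM and HD held a single read each. EGR1 was 2.94-fold higher in IL-8 than in LD (1.60 to 5.61), and RM was 14.8-fold below LD (2.32 to 619). RM, which also contained IL-8, was 43.5-fold below the IL-8 library (7.30 to 1769). In HD the single read allowed no separation from LD (4.65-fold lower, 0.728 to 194).

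IER2, an early gene that encodes a nuclear protein, had 46.7 CPM in HD (21 reads), 75.3 in RM (108 reads), 116 in IL-8 (130 reads), 138 in LD (227 reads) and 138 in IL-6 (152 reads). Neighbours among IL-8, LD and IL-6 did not differ beyond counting error, and RM lay below IL-8 by reads (1.54-fold, 1.18 to 2.01) but not in TPM, where it was 1.09-fold of IL-8. IER2 was 1.83-fold lower in RM than in LD by reads (1.45 to 2.33), a log2 difference of -0.87 that was -0.44 with TMM and -0.27 with median-ratio factors. In TPM it was 0.710-fold of LD, a smaller difference, because RM had 0.693 times the reads per TPM of LD after the library's own factor was taken out. Across genes with at least 20 reads in every library, 90% of such values lay between 0.744 and 1.22 in RM. Reads and TPM of IER2 in RM therefore differ by more than is usual in these files, and the cause was not tested.

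The question whether the genes moved as a set was answered by counts, beside the share of all 9300 genes with a mean of at least 10 reads. Of the 10 genes, 8 reached that mean, and FOS and ATF3 did not. Between IL-6 and LD, 0 of the 8 were at least 2-fold higher or lower, against 13.6% and 9.14% of all genes (22.7% in either direction), and their median log2 difference was -0.01 against 0.07. Between IL-8 and LD, 2 of 8 were apart, EGR1 higher and FOSB lower, against 13.5% of all genes higher and 22.3% lower (35.8% in either direction), with a median of -0.42 against -0.24. Between RM and LD, 2 of 8 were apart, JUND and EGR1, both lower. Of all genes 11.7% were higher and 30.4% lower (42.1% in either direction), and the median was -0.85 for the 8 against -0.45. With median-ratio factors 2 of the 8 were higher and 2 lower, against 22.8% and 15.5% of all genes. In CPM the shares of the 8 were under or near those of all genes in each comparison.

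Between HD and LD, 6 of the 8 genes were at least 2-fold lower, JUNB, JUND, FOSL1, FOSL2, EGR1 and IER2, against 45.0% of all genes, and 1 was higher, FOSB, against 29.5% (74.5% in either direction). The intervals of FOSB (0.898 to 5.84) and EGR1 included no difference, and with TMM factors 0 of the 8 were higher and 7 lower, against 24.6% and 54.0% of all genes. With RNA5-8S5 kept in the total, 3 of the 8 were lower, against 26.3% of all genes, and 1 was higher, against 41.2%. In deposited TPM 4 were lower and 1 higher, against 34.5% and 35.2% of all genes. In CPM the median log2 difference was -1.68 against -0.69 for all genes. JUNB and JUND lay furthest down, at the 1.13th and 2.26th percentile of all differences, whereas JUN was at the 51.5th. Of the 10 genes, JUN, FOSL1 and IER2 had at least 10 reads in each library. FOSL1 and IER2, 2 of these 3, were at least 2-fold lower in HD, against 41.0% of 3596 genes. The call of IER2 ended in TPM, where HD was 0.516-fold of LD, and with RNA5-8S5 kept in the total, where it was 0.711-fold.

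**Figure D4:**
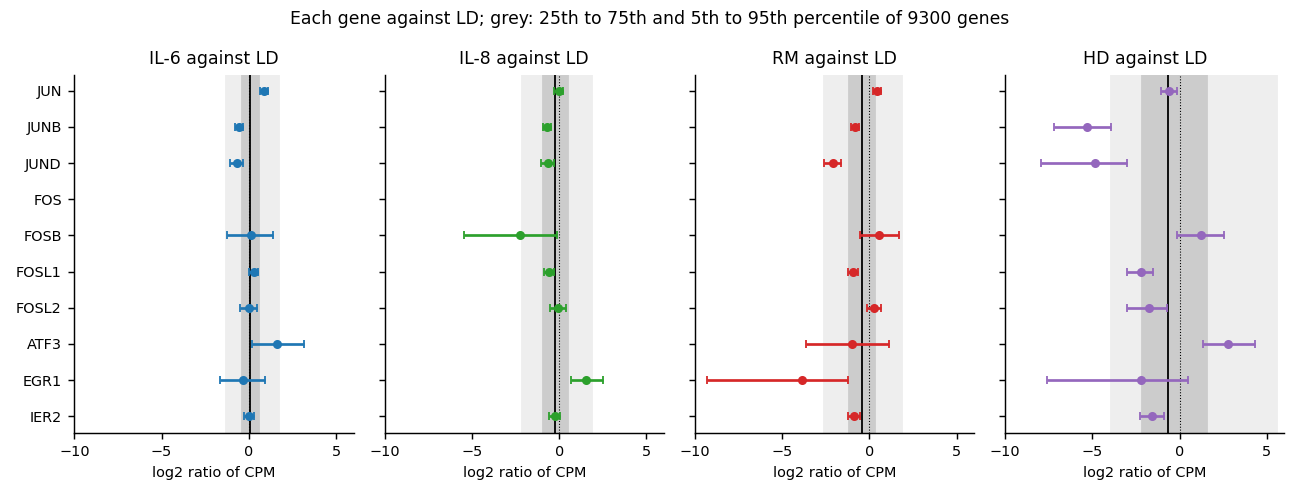
Log2 ratio of CPM of each gene against LD (x axis) in the other 4 libraries, with exact 95% counting intervals and no point where either library has 0 reads. Grey bands mark the 25th to 75th and the 5th to 95th percentile of 9300 genes and the black line their median. The bands and line use a prior of 0.5 reads and the points do not, so they differ at low counts. JUNB and JUND lie to the left of the bands in HD.

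RM contained both cytokines, so it was also set beside each alone. Against IL-6, 3 of 8 genes were at least 2-fold lower in RM, JUND, FOSL1 and EGR1, against 34.0% of all genes. Higher were 0, against 10.6% (44.6% in either direction). With TMM factors only EGR1 stayed lower, on 1 read against 9, and 0 were higher, against 19.0% and 18.4% of all genes. With median-ratio factors EGR1 was lower and FOSB higher, against 16.4% and 21.4%. Against IL-8, JUND and EGR1 were lower and FOSB was higher, 2 of 8 against 25.7% of all genes lower and 1 of 8 against 16.4% higher (42.1% in either direction). Between HD and RM, 5 of 8 genes were lower in HD, JUN, JUNB, JUND, FOSL1 and FOSL2, against 37.6% of all genes, and EGR1 was counted as higher on 1 read in each library, against 36.4% (74.1% in either direction). With RNA5-8S5 kept in the total, 2 were lower and 2 higher, against 20.2% and 51.0% of all genes, and in deposited TPM 2 were lower and 1 higher, against 27.2% and 43.2%. JUN was the least certain of these, at 2.04-fold lower in HD (1.52 to 2.78), and its direction turned when RNA5-8S5 was kept in the total. JUND was low in both RM and HD, yet still 6.90-fold lower in HD (1.80 to 58.7), and JUNB was 22.6-fold lower (8.72 to 83.4). The comparisons with LD share that library and are not independent of one another.

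Further basic leucine zipper genes, partners and rivals of Jun and Fos, were listed by family membership. Of 19, 14 had a mean of at least 10 reads. In HD 1 of them was at least 2-fold higher than LD and 7 were lower, in RM 3 and 4, in IL-8 1 and 2 and in IL-6 2 and 0, against 29.5% and 45.0% of all genes in HD, 11.7% and 30.4% in RM, 13.5% and 22.3% in IL-8 and 13.6% and 9.14% in IL-6. JDP2, which dimerises with Jun proteins and represses AP-1, had 225 reads in RM (156.9 CPM), 100 in IL-6 (90.8 CPM), 23 in IL-8 (20.5 CPM), 22 in LD (13.4 CPM) and 4 in HD (8.90 CPM). It was high in the 2 libraries that received IL-6, 6.79-fold above LD in IL-6 (4.25 to 11.3) and 11.7-fold above LD in RM (7.56 to 19.1). MAFF, a small Maf protein without an activation domain, was 3.71-fold higher in RM than in LD (2.44 to 5.79) and 4.15-fold higher in HD (2.46 to 7.02), while ATF6 was 3.34-fold lower in RM (2.41 to 4.71) and CREB1 3.10-fold lower (2.03 to 4.85). ATF4, a factor of the integrated stress response, had 160.1 CPM in HD, 165 in IL-8, 233 in RM, 259.8 in IL-6 and 269 in LD.

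The other immediate early genes numbered 36, of which 23 had a mean of at least 10 reads. In HD, 3 were at least 2-fold higher than LD and 16 lower, in RM 1 and 7, in IL-8 2 and 6 and in IL-6 2 and 3. All genes stood at 29.5% higher and 45.0% lower in HD and 11.7% and 30.4% in RM. In IL-8 all genes stood at 13.5% and 22.3%, and in IL-6 at 13.6% and 9.14%. The shares of the list outside HD were near those of all genes. Their median log2 difference in HD was -2.28 against -0.69 for all genes. SOCS3, the feedback inhibitor of IL-6 receptor signalling, had 79 reads in RM (55.1 CPM), 19 in IL-6 (17.3 CPM), 23 in LD (14.0 CPM), 3 in HD (6.67 CPM) and 7 in IL-8 (6.25 CPM). RM was 3.94-fold above LD (2.45 to 6.57). DUSP2, a nuclear phosphatase of MAP kinases, had 52 reads in LD, 3 in RM and 0 in the other libraries. It was at least 11.6-fold lower in IL-6 than in LD, at least 11.8-fold lower in IL-8 and at least 4.74-fold lower in HD, each set against the floor, with lower 95% limits of 9.10, 9.26 and 3.72 once the error of the 52 reads is included. It was 15.1-fold lower in RM (4.89 to 75.6). BTG2, an antiproliferative early gene, had 70 reads in IL-8, 36 in IL-6, 13 in LD, 9 in RM and 0 in HD, and was 7.91-fold higher in IL-8 than in LD (4.34 to 15.6). IL-8 was also the library where EGR1 was highest. CYR61, a secreted matrix protein, was 25.5-fold lower in HD than in LD (6.97 to 213).

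SRF, the factor that binds CArG boxes, had 639 reads in RM (445 CPM), 255 in IL-8 (228 CPM), 192 in IL-6 (174 CPM), 153 in LD (93.0 CPM) and 18 in HD (40.0 CPM). It was above LD in all 3 cytokine libraries and highest in RM, 4.79-fold above LD (4.01 to 5.75). EGR1 had 1 read in RM and also 1 read in HD, where that read allowed no separation from LD. A link of EGR1 to the level of SRF was not tested. Of 6 listed genes of SRF and its cofactors, 5 had a mean of at least 10 reads. At least 2-fold higher and lower than LD were 1 and 1 in RM, namely SRF and MKL1 (2.25-fold lower, 1.47 to 3.52). In IL-8 they numbered 1 and 1, in HD 0 and 2 and in IL-6 0 and 1. The 2 HD calls were SRF and ELK3. Both ended in TPM (0.602-fold and 0.571-fold of LD) and with RNA5-8S5 kept in the total (0.904-fold and 0.744-fold). All genes stood at 11.7% higher and 30.4% lower in RM and 13.5% and 22.3% in IL-8. In HD they stood at 29.5% and 45.0%, and in IL-6 at 13.6% and 9.14%. ELK4, a ternary complex partner of SRF, was 2.18-fold lower in IL-6 by reads (1.35 to 3.65), but 0.875-fold of LD in TPM, and 3.19-fold lower in IL-8 (1.84 to 5.87). Of 13 upstream MAP kinase genes, 8 had a mean of at least 10 reads. Of these, 0 were 2-fold apart from LD in IL-6, against 22.7% of all genes. In IL-8 3 were lower, in RM 1 was higher and 3 lower, and in HD 6 were lower. Lower were 22.3%, 30.4% and 45.0% of all genes in IL-8, RM and HD, and higher were 11.7% in RM. MAP2K1, which phosphorylates ERK, was 6.97-fold lower in RM than in LD (3.17 to 18.1), on 7 reads against 56, and MAPK3, which encodes ERK1, was 21.7-fold lower in HD (7.33 to 106), on 3 reads against 238.

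**Figure D5:**
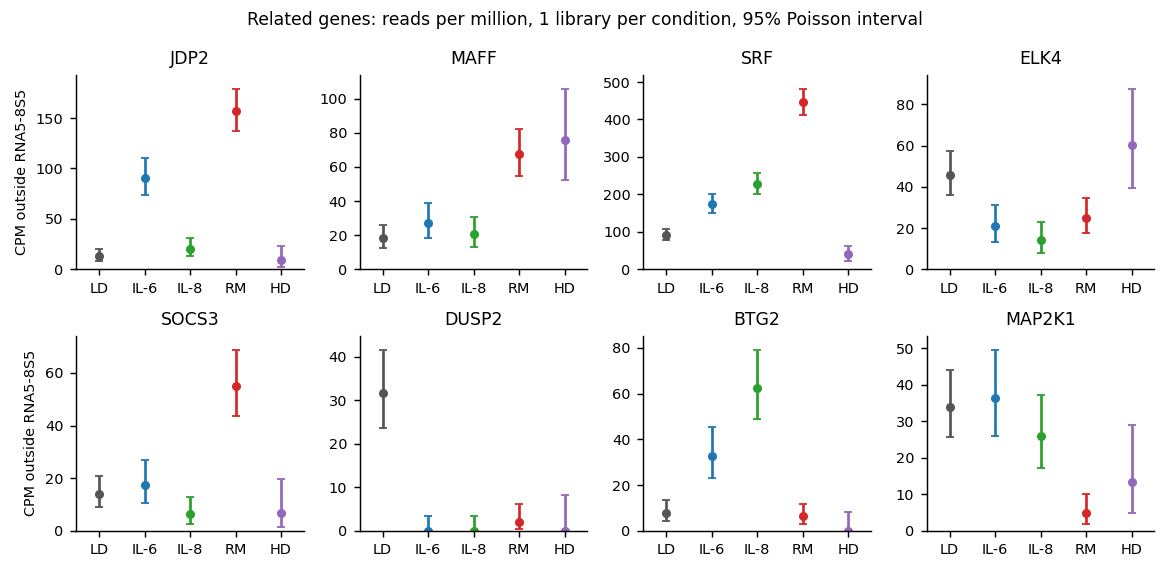
Level of 8 related genes (y axis, CPM outside RNA5-8S5, linear from 0) in the 5 libraries, with bars for the 95% Poisson interval. JDP2 is high in IL-6 and RM, SRF and SOCS3 are highest in RM, DUSP2 is highest in LD and BTG2 in IL-8.

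Of 18 genes often described as AP-1 targets, 12 had a mean of at least 10 reads. At low density 1 of the 12 was 2-fold apart from LD in each cytokine library. The share of all genes apart in either direction was 22.7% for IL-6, 35.8% for IL-8 and 42.1% for RM. ITGB4 was at least 2-fold higher than LD in IL-6 and in IL-8, on 16 and 13 reads against 6, and CD44 was 2.04-fold lower in RM (1.71 to 2.43). In HD, 9 of the 12 were lower and 1 higher, against 45.0% and 29.5% of all genes, with a median log2 difference of -2.44 against -0.69. All 10 fibrosarcoma markers were also at least 2-fold lower in HD, with a median of -2.75, and 4 genes stand on both lists. HMOX1 was 24.9-fold lower there (17.7 to 36.2) and VIM, a mesenchymal filament protein and also one of the fibrosarcoma markers, 14.3-fold lower (12.5 to 16.5). MMP1 had 2 reads in LD and 0 elsewhere, and the transcript of interleukin 8 itself (IL8) had 0 reads in every library.

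The genes most like the mean of JUN, FOSL1 and IER2, which had at least 10 reads in each library, were SDHA, FKBP1A, RPL21, GPI and NFIC. Their centred log2 values differed from the mean of the 3 genes by a root mean square of 0.05 to 0.10 over the 5 libraries, and 22.2% of the 3593 genes compared lay within 0.5. That mean ran from -1.08 in HD through -0.09 in RM, 0.07 in IL-8 and 0.36 in LD to 0.74 in IL-6. JUN itself departed from it, with a log2 difference of RM against LD of 0.43, against -0.92 for FOSL1 and -0.87 for IER2.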

How the data were processed

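RNA-seq of 5 HT1080 populations in collagen was compared, 1 library per condition, grouped by sample title. Per the labels, mRNA was primed with oligo-dT, the cDNA pool was amplified with phi29 polymerase and libraries were made by tagmentation, which does not mark strand, and read as 50 bp single ends. The submitters' processing notes list Bowtie2 2.3.1, RSEM 1.2.25 and the builds GRCh37 and hg19, and the annotation is not given in the sources used here. The authors deposited read counts per gene as whole numbers, which RSEM may have estimated and rounded. The authors also deposited TPM values, corrected for length and library total.

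Counts were divided by reads outside RNA5-8S5, and log2 differences used a prior of 0.5 reads. Ratios carry exact conditional binomial intervals and CPM exact Poisson intervals. Genes with a mean of at least 10 reads over the 5 libraries were compared, and a 2-fold difference was counted. No test was run, since 1 library per condition gives no spread. TMM factors came from edgeR 4.0.16 (R 4.3.3), and the rest was computed with scipy 1.17.1, pandas 2.3.3 and numpy 2.4.6 in Python 3.11.15. Scripts were tested on simulated data.

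The 10 genes, the lists and their tests were chosen with earlier results of these data known. All 10 are named. From each related list, up to 2 genes with the largest difference in each direction against LD were eligible, where past 2-fold with an interval leaving out 1, and up to 3 with the highest mean CPM. The 5 genes of most similar pattern had the smallest root mean square distance in centred log2 values. MMP1, IL8, KRT5 and HBA1 were named after their values were seen. Of the listed symbols, 2 were not analysed here. Promoter windows come from RefSeq on GRCh38.p14, a build other than that of the counts, and serve for sequence only. Alternatives were other scales, priors, filters and a 3-fold threshold. The filter over the 4 low-density libraries and the summed level on other scales were added after the data were seen.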

Additional observations from a re-analysis of the deposited data

How the results depend on the processing

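No paired analysis was possible because each condition has 1 library, and for the same reason no library could be left out. The number of the 8 genes at least 2-fold apart was within 1.5 times of the value given in 65 of 84 recounts over 7 comparisons. With RNA5-8S5 kept in the total it was 4 for RM against LD, with 10.1% of all genes higher and 35.3% lower. It was 4 for HD against LD. With median-ratio size factors it was 4 for RM against LD, 2 higher and 2 lower, whereas the 4 with RNA5-8S5 kept were all lower. With TMM factors it was 1 for RM against IL-6, and with deposited TPM 3 for HD against RM. With a prior of 5 reads it was 1 for IL-8 against LD, with 11.9% of all genes higher and 14.5% lower. Thinned to 449661 reads it was 4 for RM against LD, with 13.5% of all genes higher and 31.6% lower. It was 1 for both IL-8 (14.9% and 23.4%) and IL-6 (15.5% and 11.2%) against LD. Without a filter, FOS and ATF3 entered and it was 2 for IL-6 against LD, with 15.2% of all genes higher and 10.4% lower. It was 5 for RM against IL-6, with 7.93% and 25.7%. With at least 10 reads in all 5 libraries, 3 genes remained. The number was then 0 for IL-8 against LD, with 8.98% of 3596 genes higher and 12.3% lower. It was also 0 for RM against LD (8.84% and 19.7%) and RM against IL-8 (11.5% and 17.3%). It was 1 for RM against IL-6 (8.45% and 23.5%), 2 for HD against LD (24.6% and 41.0%) and 2 for HD against RM. At 3-fold it was 1 for IL-8 against LD, with 7.12% of all genes higher and 10.2% lower. It was 1 for RM against IL-6 as well, with 5.76% and 17.8%. With RNA5-8S5 kept in the total, the log2 difference of JUN between HD and RM was 0.20, against -1.02 without it. The log2 ratio of the summed level turned with median-ratio factors to 0.052 for RM against LD, 0.066 for RM against IL-6 and 0.12 for RM against IL-8, and with TMM factors to 0.080 for RM against IL-8. Leaving HD out of the filter changed no count.

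Of 56 differences of the 8 genes, 15 did not keep 1 sign over the 9 scales and priors. The scale also moved all genes. In RM against LD, 11.7% of the 9300 genes were higher and 30.4% lower by 2-fold, but 18.6% and 18.9% with TMM factors and 22.8% and 15.5% with median-ratio factors. In HD against LD the split was 29.5% and 45.0%, but 41.2% and 26.3% with RNA5-8S5 kept, 35.2% and 34.5% in deposited TPM and 24.6% and 54.0% with TMM factors. In HD against RM it was 36.4% and 37.6%, but 51.0% and 20.2% with RNA5-8S5 kept, 43.2% and 27.2% in deposited TPM and 27.3% and 52.2% with TMM factors. In RM against IL-6 it was 10.6% and 34.0%, but 18.4% and 19.0% with TMM factors and 21.4% and 16.4% with median-ratio factors, and in IL-8 against LD 13.5% and 22.3%, but 17.1% and 16.8% and then 19.8% and 14.0%. The median log2 difference of all genes in HD against LD was -0.69, and 0.38 with RNA5-8S5 kept and -1.28 with TMM factors. The causes were not tested. Depth limits FOS, FOSB, ATF3 and EGR1, each with at most 34 reads in a library, and every gene in HD.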
